A study of Mus musculus with 2 samples.

Results

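The 8 complement genes and receptors described here, C1qa, C1qb, C1qc, C4b, C3, Cfp, C3ar1 and C5ar1, were chosen by name, with no measured value in the rule, from the 32285 genes counted in the data. CD45+ cells from dissociated brains of 8 mice at 12 weeks of age were tagged per mouse, pooled into 1 library and sequenced from the 3′ ends of their transcripts. The 4 Control mice were Arpc4 fl/fl without Cre, and the 4 Arpc4dCx3cr1 mice were Tg(Cx3cr1-Cre) Arpc4 fl/fl, so that every mouse carried the floxed alleles of Arpc4, which encodes a subunit of the actin-nucleating Arp2/3 complex. The Cx3cr1 promoter drives Cre in myeloid cells from early development, so the design does not limit the deletion to microglia, and the study's methods give all 4 Control mice as male and 1 Arpc4dCx3cr1 mouse as female without the labels marking which. In microglia-like cells, Arpc4dCx3cr1 replicate 1 held the X-inactivation transcript Xist at 1409 CPM (UMI counts of a gene scaled to the same total in every sample) against 3.58 to 14.6 in the other 7 mice, and Y-linked Ddx3y at 4.26 CPM against 66.0 to 84.0. It was thus the only mouse with the levels of a female. The study excluded its female mouse from downstream analysis, whereas all 8 mice were used here. Results that rest on Arpc4dCx3cr1 replicate 1 are therefore given with and without it, or marked as such.

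Complement is a set of plasma and cell-surface proteins that marks particles for uptake and draws in phagocytes. In the classical pathway C1q, built from the A, B and C chains that C1qa, C1qb and C1qc encode, binds a target and leads to cleavage of C4 and C2, whereas properdin, the product of Cfp, stabilises the convertase of the alternative pathway, and both routes meet at C3. Microglia are the main source of C1q in the brain, where complement is best known for tagging synapses for removal, and they carry receptors for the released fragments C3a (C3ar1) and C5a (C5ar1).

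In the mm10 build with the GENCODE vM21 annotation, all 8 members were protein-coding genes on the minus strand. The 3 C1q genes lay side by side, C1qb (ENSMUSG00000036905) at chr4:136880129-136886187, C1qc (ENSMUSG00000036896) at chr4:136889804-136893065 and C1qa (ENSMUSG00000036887) at chr4:136895917-136898803, with 3616 and 2851 bases between neighbours. C4b (ENSMUSG00000073418) was at chr17:34728380-34743882, C3 (ENSMUSG00000024164) at chr17:57203970-57228136, Cfp (ENSMUSG00000001128) at chrX:20925454-20931555, C3ar1 (ENSMUSG00000040552) at chr6:122847138-122856161 and C5ar1 (ENSMUSG00000049130) at chr7:16246743-16259540. C3 overlapped the microRNA gene Mir6978 on its own strand. C4b has a near-identical copy, C4a at chr17:34809092-34823464, to which reads may have been lost or from which they may have been gained, and C4a held 0.0934 CPM in Control and 0.05 CPM in Arpc4dCx3cr1 microglia-like cells.

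The promoter sequences below are shown because C3 was the member with the largest genotype difference and C1qb and C1qc are adjacent genes with like patterns over cell types. RefSeq windows from 250 bases before to 50 bases after the gene start (GRCm38.p6, minus strand, printed 5′ to 3′ along the gene) were found for 6 of the 8 members, and not for C1qa and C4b. Both strands were searched for the PU.1 core GAGGAA, found in 28.3% of 32851 mouse promoter windows of this length, the C/EBP motif TTGCGNAA, found in 0.798%, the interferon-stimulated response element, found in 3.44%, and the TATA box TATAAA, found in 13.6%. None of these motifs overlapped another in the windows printed, and capitals mark the matches. The C3 window, chr17:57228087-57228386, held a C/EBP match that began 45 bases before the start and a TATA match 14 bases after it.
C3: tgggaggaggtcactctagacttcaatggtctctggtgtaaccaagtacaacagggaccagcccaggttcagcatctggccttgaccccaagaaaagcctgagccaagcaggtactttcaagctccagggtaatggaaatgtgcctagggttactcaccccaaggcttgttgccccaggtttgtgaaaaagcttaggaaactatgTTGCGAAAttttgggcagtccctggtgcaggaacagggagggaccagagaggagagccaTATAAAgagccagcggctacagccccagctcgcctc
The C1qb window, chr4:136886151-136886450, held a PU.1 core 30 bases before the start, and the C1qc window, chr4:136892865-136893164, held it on the opposite strand, 193 bases before the start.
C1qb: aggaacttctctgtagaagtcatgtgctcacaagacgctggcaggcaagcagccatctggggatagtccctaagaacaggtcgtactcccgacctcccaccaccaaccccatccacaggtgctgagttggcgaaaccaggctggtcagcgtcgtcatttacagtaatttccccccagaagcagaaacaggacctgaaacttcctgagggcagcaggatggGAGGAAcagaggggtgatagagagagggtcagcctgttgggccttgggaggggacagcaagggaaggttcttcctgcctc
C1qc: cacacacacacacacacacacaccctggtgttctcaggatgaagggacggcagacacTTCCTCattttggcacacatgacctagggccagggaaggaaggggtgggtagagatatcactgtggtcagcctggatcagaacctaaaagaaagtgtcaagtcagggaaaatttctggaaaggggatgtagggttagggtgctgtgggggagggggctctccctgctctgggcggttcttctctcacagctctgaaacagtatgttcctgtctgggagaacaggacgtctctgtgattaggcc
Of the other windows, that of Cfp held the PU.1 core on the opposite strand 6 and 22 bases after the start, that of C3ar1 a TATA match 235 bases before it, and that of C5ar1 none of the 4 motifs. These matches describe letters only, and binding was not measured.

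In all, 19863 cells were kept, 9443 of Control and 10420 of Arpc4dCx3cr1 mice, with 5251527 to 12878691 UMIs (unique molecular identifiers, each standing for 1 captured RNA molecule) on genes per mouse and no barcode shared between mice. Between 98.9 and 100% of the cells of a mouse carried its labelled tag as the leading tag. Cells were clustered without the complement genes and clusters were named from marker genes, which gave 7745 Control and 7935 Arpc4dCx3cr1 microglia-like cells and 287 and 125 CNS-associated macrophage (CAM)-like cells. Control microglia-like cells lay mostly in clusters led by Csmd3, Crybb1 and Ecscr, and Arpc4dCx3cr1 ones in clusters led by Ctnna3, Xist and Cst7. The summed level of the 12 microglia markers was 22876 to 23289 CPM in the Control mice and 9098 to 13492 CPM in the Arpc4dCx3cr1 mice, with none of the 12 higher in the latter. Outside the class stayed 993 Control and 509 Arpc4dCx3cr1 cells of shallow clusters and an unnamed cluster of 1343 cells with high Ms4a7, which entered a second clustering described further on. Arpc4 itself was at 236, 216, 226 and 222 CPM in Control and 153, 148, 145 and 137 CPM in Arpc4dCx3cr1 microglia-like cells, a log2 fold change of -0.62 (SE 0.06, adjusted p = 3.20e-06, edgeR quasi-likelihood test with Benjamini-Hochberg adjustment). In CAM-like cells Arpc4 did not pass the test (log2 fold change 0.27, adjusted p = 0.687, edgeR). Sequencing from the 3′ end counts transcripts that have lost an internal exon as well, so these levels do not measure how many cells were recombined.

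The levels below compare cell types for 1 gene at a time, because 3′ UMI counts are not scaled by gene length. C1qa was at 7710 ± 127 CPM in Control microglia-like and 7517 ± 419 CPM in Control CAM-like cells (mean ± SD, n = 4 mice), followed by proliferating-like cells at 3074 ± 2132 CPM (n = 3) and T cell-like cells at 2673 ± 453 CPM (n = 4), with monocyte-like cells lowest of the 5 at 979 ± 778 CPM (n = 4). The microglia-like and CAM-like levels of C1qa, and those of the proliferating-like and T cell-like cells, lay within each other's spread. C1qb and C1qc followed the same order, from 7430 ± 71.7 CPM of C1qb in microglia-like to 975 ± 691 CPM in monocyte-like Control cells and from 5004 ± 148 CPM of C1qc to 520 ± 360 CPM. Empty droplets, barcodes of at most 100 UMIs that sample RNA free in the suspension, held C1qa at 9752 CPM, C1qb at 11091 CPM and C1qc at 5494 CPM, more than any Control cell type. T cell-like cells, which are not known to make C1q, were at 33.7% of the Control microglia-like level for C1qa and 32.9% for C1qc.

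C4b, the substrate that activated C1 cleaves, and Cfp lay mainly in cells other than microglia. In Control cells C4b was at 158 ± 27.3 CPM in CAM-like against 2.27 ± 0.729 CPM in microglia-like cells (n = 4), and granulocyte-like and B cell-like cells held no C4b UMI, which allows up to 11.6 and 25.5 CPM (upper ends of exact Poisson intervals over all mice). Cfp was at 73.7 ± 36.1 CPM in monocyte-like and 36.6 ± 14.0 CPM in CAM-like cells of the Control mice, within each other's spread, and at 0.938 ± 0.270 CPM in microglia-like cells, below the 6.13 CPM of the empty droplets. Pooled over mice, granulocyte-like Control cells held Cfp at 44.2 CPM (95% Poisson interval 24.2 to 74.1).

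C3, the protein on which the pathways converge, was highest in granulocyte-like cells, at 256 CPM (95% Poisson interval 203 to 318) over 35 Control cells and 144 CPM (115 to 178) over 45 Arpc4dCx3cr1 cells. Of these granulocyte-like cells, 19 came from Control replicate 3 and 32 from Arpc4dCx3cr1 replicate 1, the mouse with high Xist. No other mouse held the 10 such cells needed for a sum, so the genotypes cannot be compared in this type. All other Control types were at or below 25.0 CPM of C3, and microglia-like cells were at 1.96 CPM (1.51 to 2.51). C3ar1 was highest in CAM-like cells, at 328 ± 11.6 CPM in the Control mice, then in microglia-like cells at 170 ± 15.0 CPM, and at 66.0 ± 20.5 CPM in T cell-like cells, near the share seen for C1q. C5ar1, known from neutrophils, was at 180 CPM (136 to 233) in granulocyte-like cells, 134 CPM (114 to 157) in CAM-like cells and 77.3 CPM (74.3 to 80.4) in microglia-like cells of the Control mice, of which the first and second had overlapping intervals. All these intervals cover counting error only.

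**Figure D1:**
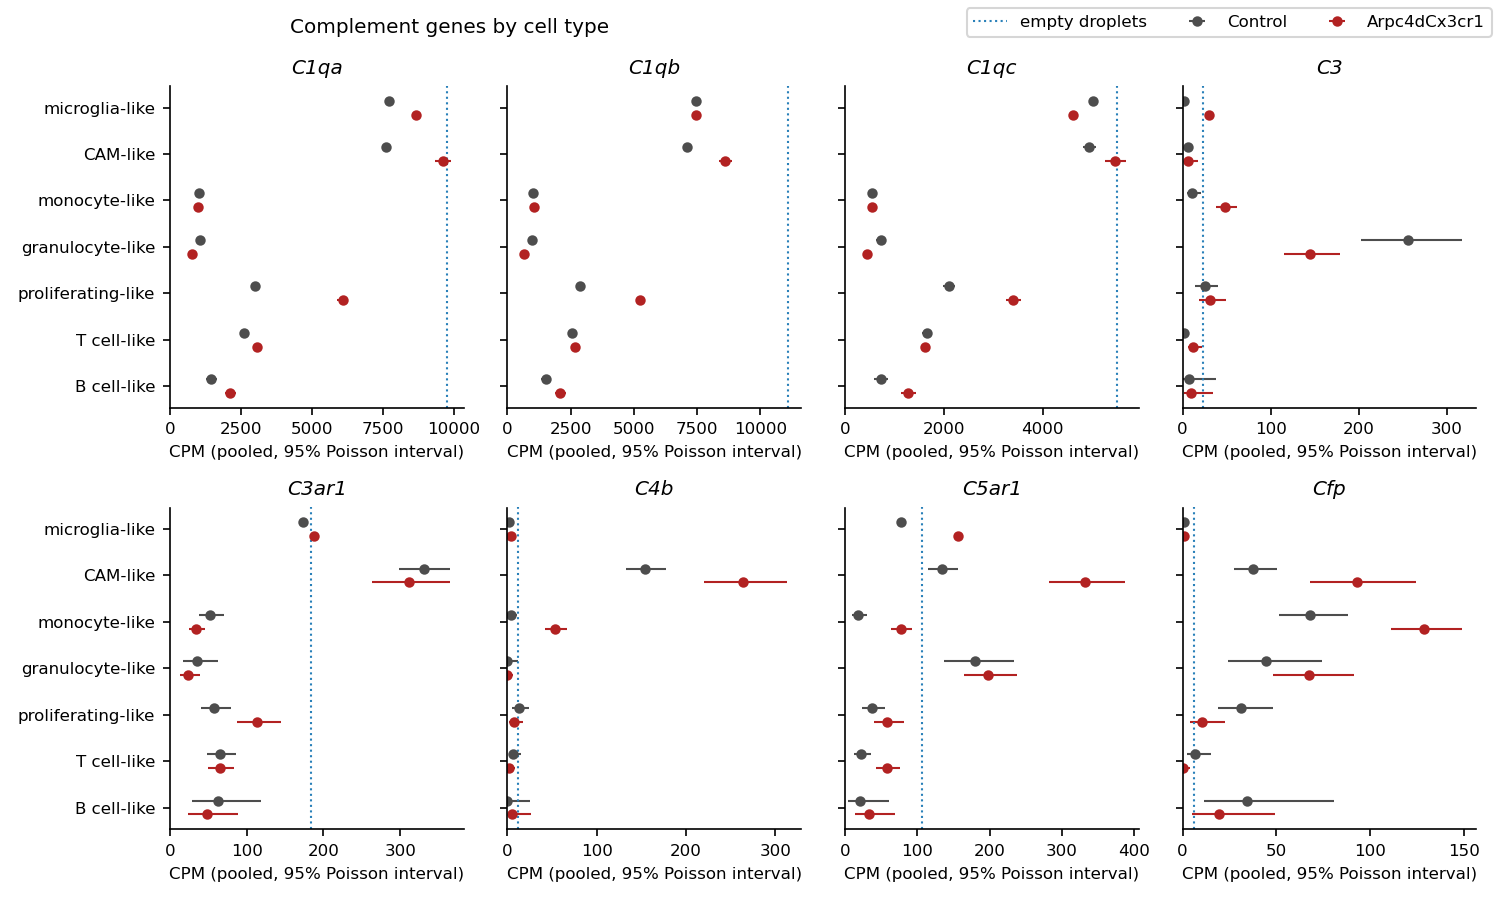
Level of each member by cell type, in CPM of all UMIs of a cell type and genotype, with 95% Poisson intervals as bars, Control in grey and Arpc4dCx3cr1 in red, and the level in empty droplets as a dotted line. The C1q genes stand high in microglia-like and CAM-like cells, C4b in CAM-like cells and C3 in granulocyte-like cells, where it reached 256 CPM in Control and 144 CPM in Arpc4dCx3cr1 cells. These granulocyte-like cells came mostly from 1 mouse of each genotype.

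The same cell types were compared in the Control mice by a test over the sums of each mouse. All 7 members tested were higher in CAM-like than in microglia-like cells and did not overlap between the types, against 17.0% of 10571 genes higher, 31.5% called in either direction and 34.8% not overlapping. C4b was at 160, 208, 149 and 177 CPM in CAM-like cells of Control replicates 1 to 4, and at 1.77, 1.42, 2.99 and 2.14 CPM in microglia-like cells of the same mice, which gave a log2 fold change of 6.33 (SE 0.22, adjusted p = 8.97e-33, edgeR quasi-likelihood test). Cfp was at 25.1, 58.2, 46.2 and 31.4 CPM against 1.11, 0.948, 0.515 and 0.874 CPM (log2 fold change 5.60, SE 0.42, adjusted p = 9.95e-18, edgeR). For both genes every CAM-like value lay far above every microglia-like value. The receptors differed less, C3ar1 by 1.21 (SE 0.09, adjusted p = 3.86e-17) and C5ar1 by 1.08 (SE 0.15, adjusted p = 9.31e-08) on the log2 scale in the same edgeR test. The C1q chains were higher by 0.23 (C1qa, adjusted p = 0.00393), 0.19 (C1qb, adjusted p = 0.0166) and 0.24 (C1qc, adjusted p = 0.00311) in the edgeR test. Per total UMIs, as given above, CAM-like cells had the lower mean of each C1q chain, so this direction rests on the TMM scaling. The C1q calls were lost when genes with low counts were kept in the test, where C1qa was at 0.11 (edgeR adjusted p = 0.250), and when Control replicate 3 was left out, where it was at 0.19 (adjusted p = 0.0924). C1qb was lost without Control replicate 1 or 2 as well, and with 10% free RNA subtracted.

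The genotypes were compared first in microglia-like cells, where 44.9% of the 12633 genes tested passed the threshold. Of all genes tested, 22.2% passed as higher and 22.6% as lower in Arpc4dCx3cr1 mice, and 43.4% did not overlap between the genotypes. Against that background, 7 of the 8 members were tested and 3 were called, C3, C1qa and C3ar1, all higher in Arpc4dCx3cr1 mice. Cfp did not pass the filter on low counts, with 29 UMIs in Control and 30 in Arpc4dCx3cr1 cells. The values of C3, C1qa and C5ar1 did not overlap between the genotypes. Only C3 changed by over 1.5-fold among the called members.

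C3 rose in the microglia-like cells of every Arpc4dCx3cr1 mouse. It was at 3.50, 1.10, 1.74 and 2.15 CPM in Control replicates 1 to 4 and at 25.1, 28.7, 27.7 and 43.3 CPM in Arpc4dCx3cr1 replicates 1 to 4, on a scale of total UMIs times the TMM factor. The lowest Arpc4dCx3cr1 value stood several times above the highest Control value. The means of 2.12 ± 1.02 and 31.2 ± 8.22 CPM (SD, n = 4) gave a fold change of 16.1 (log2 4.01, SE 0.29, adjusted p = 4.56e-06, edgeR). With any 1 mouse left out the log2 fold change stayed between 3.77 and 4.22 and the call held, and over all CD45+ cells of a mouse, which include the granulocyte-like ones, it was 2.73 (adjusted p = 0.000576, edgeR). The granulocyte marker list summed to 82.1 to 99.5 CPM in Control and 82.9 to 85.5 CPM in Arpc4dCx3cr1 microglia-like cells. Empty droplets held C3 at 22.9 CPM, and T cell-like cells at 1.32 CPM (95% Poisson interval 0.0334 to 7.35) in Control and 12.3 CPM (6.13 to 22.0) in Arpc4dCx3cr1 mice. The latter was 40.8% of the microglia-like level, where C1qa in the same cells was at 35.5%. With 10% of each sum subtracted as free RNA, the edgeR adjusted p of C3 was 3.56e-05. The same empty-droplet profile was taken from both genotypes, which left the Control sums almost no C3 UMIs. This fit could therefore not make the fold change smaller and does not test the part of free RNA.

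C3 UMIs were seen in a larger share of Arpc4dCx3cr1 than of Control microglia-like cells, and most cells of both genotypes held none. After each cell was thinned to 2000 UMIs, C3 was seen in 0.207, 0.182, 0.190 and 0.228% of microglia-like cells in Control replicates 1 to 4 and in 4.12, 5.31, 4.82 and 6.39% in Arpc4dCx3cr1 replicates 1 to 4 (two-sided exact permutation test of the means, p = 0.0286, the smallest that 4 against 4 mice allow). Adjusted over the members, the permutation test gave p = 0.114, which did not pass. A few members at the smallest possible p cannot pass this adjustment, so the adjusted test could not decide on C3 alone. The genotypes did not overlap. These shares rest on 15 of 7463 Control and 402 of 7816 Arpc4dCx3cr1 cells, with 282 and 119 shallower cells left out. Among T cell-like cells of the same depth, C3 was seen in 5 of 167 Arpc4dCx3cr1 cells, 2.99% (exact binomial interval 0.979 to 6.85%), and in 0 of 129 Control cells, which allows a share of up to 2.33% as 3 counts of the total and 2.82% as the upper end of the exact interval. The interval of the Arpc4dCx3cr1 T cell-like share holds the microglia-like share, while the CPM intervals of the 2 types did not overlap. Microglia-like cells of both genotypes came from the same pool, with C3 in 0.201% of Control and 5.14% of Arpc4dCx3cr1 cells over all mice. The part of free RNA in these shares was not tested. Without thinning, the C3 UMIs of a Control mouse numbered 11 to 21 and those of an Arpc4dCx3cr1 mouse 244 to 427, of which the top 1% of cells held 15.0 to 21.1%.

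The C1q chains differed little between the genotypes. C1qa was at 7473, 7289, 7574 and 7478 CPM in Control replicates 1 to 4 and at 10711, 8610, 8471 and 8142 CPM in Arpc4dCx3cr1 replicates 1 to 4. The genotypes did not overlap, but replicate 1 stood apart from the other Arpc4dCx3cr1 mice. The log2 fold change of C1qa was 0.27 (SE 0.08, adjusted p = 0.0198, edgeR), 0.18 without Arpc4dCx3cr1 replicate 1 (adjusted p = 0.0131), and the call was lost without Control replicate 1 (adjusted p = 0.0530) or Control replicate 2 (adjusted p = 0.0625). C1qb was at 7163, 7174, 7244 and 7151 CPM against 9542, 7379, 7135 and 6940 CPM, with overlap, and did not pass (log2 fold change 0.11, SE 0.09, adjusted p = 0.361, edgeR). C1qc was at 4645 to 4942 CPM in Control and 4462 to 5298 CPM in Arpc4dCx3cr1 mice and did not pass either (-0.01, SE 0.07, adjusted p = 0.911, edgeR). C4b stayed near the lower limit of detection, at 1.87, 1.5, 3.15 and 2.25 CPM against 11.5, 2.20, 0.870 and 1.73 CPM. Its log2 fold change of 0.88 (SE 0.84, adjusted p = 0.431, edgeR) turned to -0.49 without Arpc4dCx3cr1 replicate 1.

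C1qa and C1qb, whose products are joined in equal numbers in the C1q protein, did not keep the same ratio of UMIs in both genotypes. The ratio of C1qa to C1qb UMIs was 1.02 to 1.05 in the Control and 1.12 to 1.19 in the Arpc4dCx3cr1 mice in microglia-like cells (mean 1.04 ± 0.0144 and 1.16 ± 0.0279, n = 4). The genotypes did not overlap. In T cell-like cells the ratio was 1.03 ± 0.0543 and 1.16 ± 0.0690, in CAM-like cells 1.07 ± 0.0485 and 1.13 ± 0.0920, in monocyte-like cells 0.956 ± 0.101 and 0.865 ± 0.191, lower in Arpc4dCx3cr1 mice, and in empty droplets 0.879. The ratio was looked at after the values of both genes were known and is a description without a test.

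Among the receptors for released fragments, C3ar1 rose slightly and C5ar1 stood high in 1 mouse. C3ar1 was at 148, 159, 172 and 178 CPM in Control replicates 1 to 4 and at 230, 199, 171 and 185 CPM in Arpc4dCx3cr1 replicates 1 to 4. The genotypes overlapped, with Arpc4dCx3cr1 replicate 3 below Control replicates 3 and 4. The log2 fold change of C3ar1 was 0.25 (SE 0.09, adjusted p = 0.0405, edgeR), and the call was lost without Control replicate 1, 2 or 3 or without Arpc4dCx3cr1 replicate 2 (adjusted p 0.117, 0.104, 0.0625 and 0.0803). C5ar1 was at 64.4, 75.9, 68.7 and 83.3 CPM against 320, 104, 109 and 114 CPM. Every Arpc4dCx3cr1 value lay above every Control value, and replicate 1 was near 3 times the other Arpc4dCx3cr1 mice. With all mice C5ar1 did not pass (log2 fold change 1.14, SE 0.43, adjusted p = 0.0705, edgeR), whereas without Arpc4dCx3cr1 replicate 1 it was called at 0.57 (adjusted p = 4.88e-06). With all 8 mice C5ar1 was also called by DESeq2 (1.16, adjusted p = 0.0158) and in edgeR after free RNA was subtracted at the T cell-like share (1.63, adjusted p = 0.0420). That subtraction took the same profile from both genotypes, which by itself raises the fold change of a gene higher in 1 of them. At 2000 UMIs per cell C5ar1 was seen in 12.7 to 16.6% of Control and 17.3 to 44.1% of Arpc4dCx3cr1 microglia-like cells (means 14.0 and 24.6%, exact permutation test, two-sided, p = 0.0286). Adjusted over the members, the permutation test gave p = 0.114, which did not pass and, as for C3, could not decide. Without Arpc4dCx3cr1 replicate 1 the highest Arpc4dCx3cr1 share was 18.6% and the mean 18.1%, a difference of 4.05 percentage points. C5ar1 was seen in 3.10% of Control and 4.79% of Arpc4dCx3cr1 T cell-like cells. C3ar1 was seen in 27.2 ± 2.92% and 29.7 ± 4.10% (p = 0.4, exact permutation test).

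**Figure D2:**
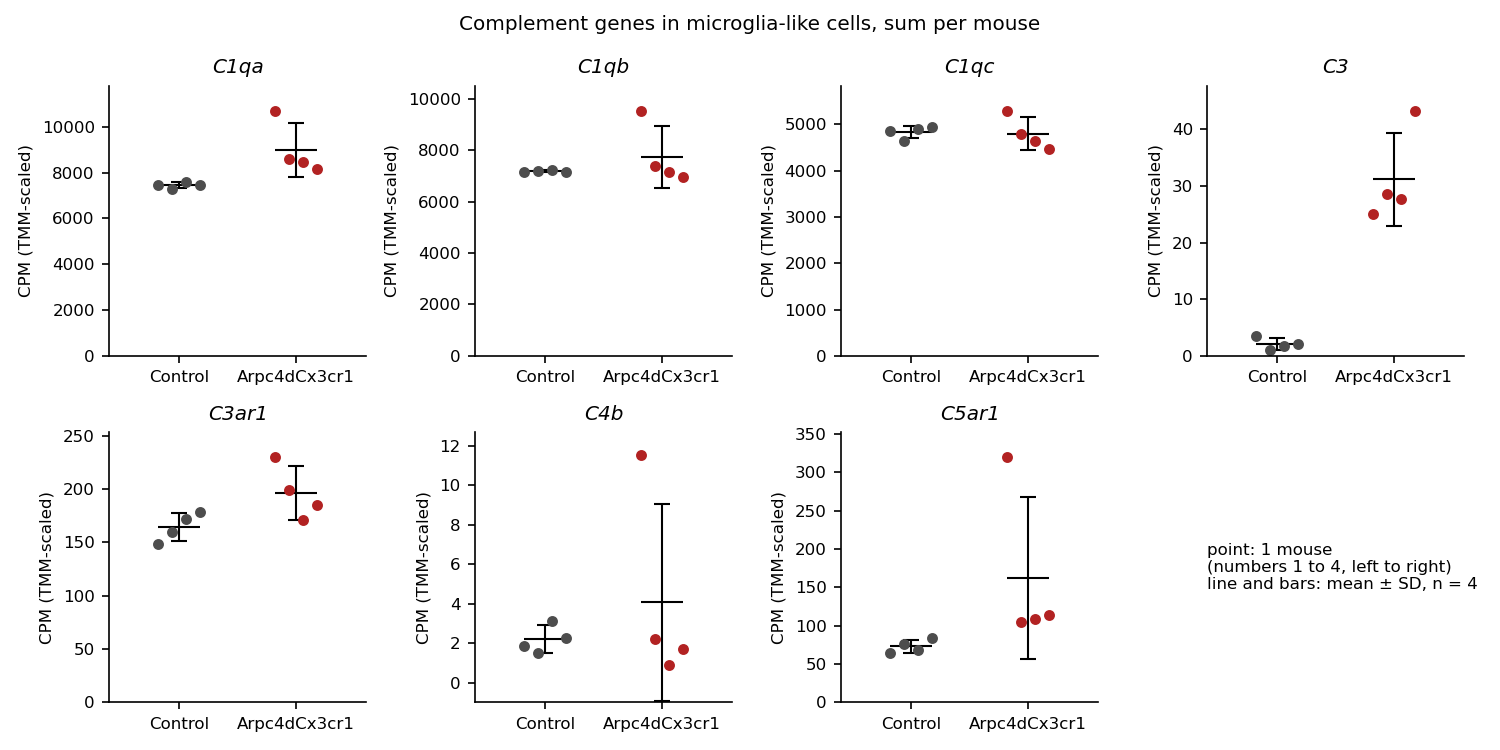
Level of the 7 members tested in microglia-like cells, in CPM scaled by the TMM factor, with 1 point per mouse in the order of its number and the mean ± SD (n = 4) as lines. C3 separates the genotypes by far more than their spread, at 1.10 to 3.50 CPM against 25.1 to 43.3 CPM, while Arpc4dCx3cr1 replicate 1 is the highest point for every member but C3. The lower error bar of C4b reaches below 0 because its SD exceeds its mean.

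Of the 57 genes in a wider complement list, 23 were tested in microglia-like cells, and 9 were higher, 5 lower and 9 did not pass in Arpc4dCx3cr1 mice. Over all genes tested, 22.2% were higher and 22.6% lower. The median log2 fold change of the list was 0.11 against -0.01 over all genes. Among initiators, C1qa and C2 were the 2 of 5 tested that rose. C2, the protease of the classical C3 convertase, was at 3.50, 3.40, 2.71 and 3.48 CPM in Control and 21.4, 21.7, 23.8 and 22.8 CPM in Arpc4dCx3cr1 replicates, without overlap (log2 fold change 2.78, SE 0.12, adjusted p = 2.00e-08, edgeR). In the alternative pathway, both genes tested rose, C3 and Cfb, the factor B that forms its convertase, at 0 to 0.70 CPM against 1.51 to 2.61 CPM (log2 fold change 2.82, adjusted p = 0.000668, edgeR). Of 3 lectin pathway genes tested, Masp1, a protease of that pathway, and Colec12, a scavenger receptor with a lectin domain, rose by 1.61 (adjusted p = 5.74e-06) and 5.19 (adjusted p = 0.000890) on the log2 scale in the edgeR test. Colec12 varied widely, at 0.90 to 3.99 CPM in Control and 157, 38.3, 66.8 and 112 CPM in Arpc4dCx3cr1 replicates. The 7 genes of the terminal pathway, which form the membrane attack complex, did not pass the filter on low counts.

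Of 10 receptors tested, 3 rose and 3 fell, set against 22.2% and 22.6% of all genes. The chains of complement receptors 3 and 4, which bind C3 fragments on phagocytes, changed unequally. Itgam, the CD11b chain, fell from 580, 522, 568 and 543 CPM in Control to 371, 315, 270 and 281 CPM in Arpc4dCx3cr1 replicates (log2 fold change -0.84, SE 0.09, adjusted p = 1.86e-05, edgeR). Itgax, the CD11c chain, rose from 10.0, 6.09, 9.01 and 8.59 CPM to 58.8, 102, 165 and 164 CPM (3.89, SE 0.43, adjusted p = 0.000383), and their shared partner Itgb2 rose from 145 to 156 CPM in Control to 159 to 179 CPM in Arpc4dCx3cr1 replicates (0.16, SE 0.06, adjusted p = 0.0355, edgeR). The call of Itgb2 was lost in 8 of 18 alternatives, among them the fits without any 1 of the Control mice, without Arpc4dCx3cr1 replicate 4 (adjusted p = 0.0996) and with the Ms4a7-high cluster included (adjusted p = 0.136, edgeR). C5ar2, the other receptor for C5a, fell by 0.79 on the log2 scale (SE 0.09, adjusted p = 2.97e-05, edgeR), from 43.4 to 53.9 CPM down to 24.3 to 29.7 CPM, with no overlap. Lrp1, a receptor that takes up C1q-tagged material, fell by 0.75. None of the 3 regulators tested rose. Cd46 fell by 0.72, past the threshold, and Cr1l did not pass. The members of the list were chosen with earlier results of these mice known, so the counts describe the list and are no test of it.

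**Figure D3:**
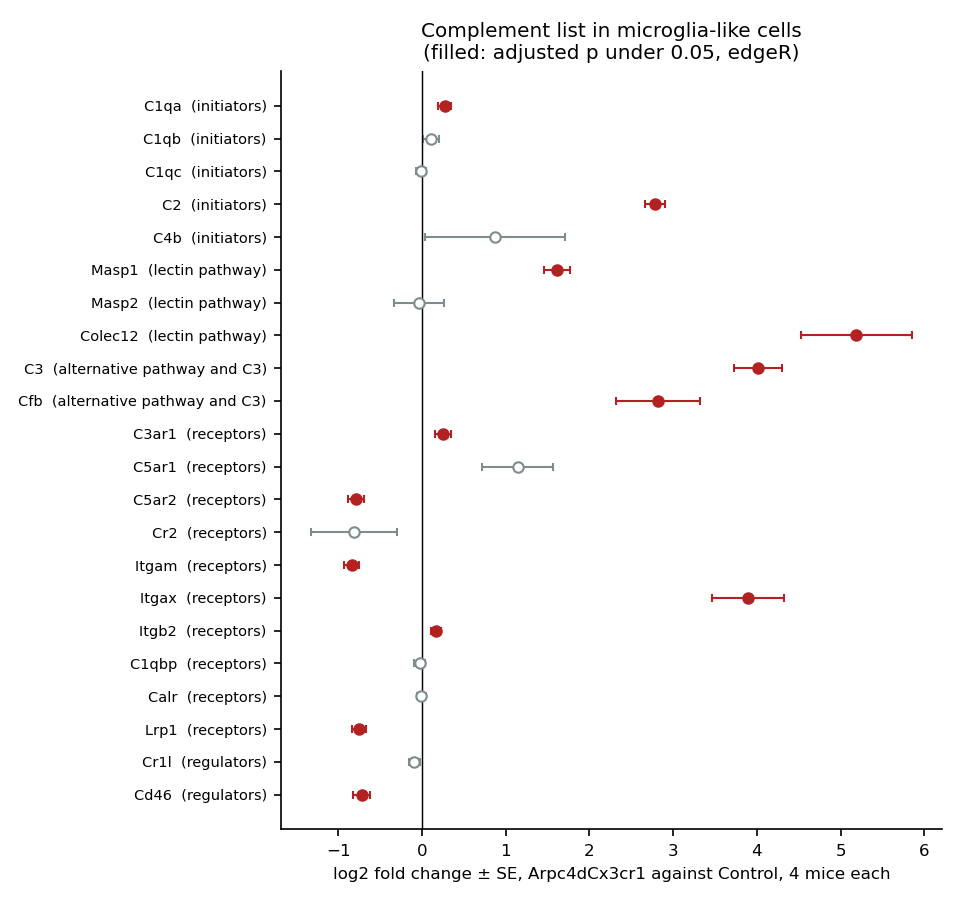
Log2 fold change ± SE of listed complement genes tested in microglia-like cells (all but 1 of the 23), Arpc4dCx3cr1 against Control, grouped by role, with filled red points for adjusted p under 0.05 in the edgeR test. C3, Cfb, C2, Itgax and Colec12 lie right of 2.5, and of the genes that fell, Itgam, C5ar2, Lrp1 and Cd46 lie left of -0.7.

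The microglia-like cells and that unnamed cluster were divided again into 12 clusters without the complement genes, Arpc4, Ms4a7 and sex-linked genes, to see where within them the members lay. C3 was found in every cluster made mostly of Arpc4dCx3cr1 cells. Its mean over the Arpc4dCx3cr1 mice was highest in cluster 10, led by the interferon-induced Cxcl10 and Rsad2, at 46.6 ± 20.1 CPM, then 34.9 ± 6.09 CPM in cluster 8, led by Ccl4 and Ccl3, 31.5 ± 11 CPM in cluster 1, led by Tafa1, and 30.5 ± 6.44 CPM in cluster 3, led by Cst7 (SD, n = 4). These neighbours in the order lay within each other's spread. Cluster 9, led by Arhgap15, held the least at 11.3 ± 5.08 CPM (n = 3). This was no higher than the 12.3 CPM of Arpc4dCx3cr1 T cell-like cells and below the level of empty droplets given above. The part of free RNA in the cluster levels was not tested. In the 4 clusters made mostly of Control cells, the Control mice held C3 at 0.688 to 1.04 CPM. The 91 Control cells that fell in cluster 1 held 18 C3 UMIs, 15.3 ± 11.5 CPM, and the 47 Arpc4dCx3cr1 cells of 2 mice that fell in cluster 0, led by Csmd3, held none.

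C5ar1 and C3ar1 followed other clusters than C3. Cluster 5, led by Xist and Fn1 and to 96.3% from Arpc4dCx3cr1 replicate 1, held C5ar1 at 285 ± 33.6 CPM over 3 mice. Across the other Arpc4dCx3cr1 clusters C5ar1 lay between 104 and 187 CPM on average, with SDs up to 151 CPM. C3ar1 was highest in the Arpc4dCx3cr1 mice in cluster 6, at 365 ± 64.2 CPM, then at 271 ± 75.9 CPM in cluster 11, led by Cst7 and Spp1, and of the clusters made mostly of Arpc4dCx3cr1 cells it was lowest in cluster 1, at 162 ± 18.1 CPM. In cluster 8 the receptors ran against the genotype difference of the whole class. The 104 Control cells there held C3ar1 at 577, 473, 443 and 536 CPM in replicates 1 to 4, and the 828 Arpc4dCx3cr1 cells at 275, 248, 211 and 208 CPM. C5ar1 was at 279 ± 39.3 CPM in Control and 177 ± 101 CPM in Arpc4dCx3cr1 cells of that cluster. These values were singled out after they were seen, rest on 13 to 34 cells per Control mouse and were not tested.

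Cluster 6 held the highest Ms4a7 level, 1633 CPM in Arpc4dCx3cr1 cells, with 1402 Arpc4dCx3cr1 and 39 Control cells. It was led by hemoglobin genes. Their summed level ran from 3.78 to 15597 CPM over the Arpc4dCx3cr1 mice, nearly all of it in 1 mouse. The name of the cluster could not be set from microglia markers, and the study describes a subset with Ms4a7 as a marker. Against the other microglia-like cells of the same 4 Arpc4dCx3cr1 mice, 15.3% of 11650 genes were called, 7.19% higher, and 21.2% did not overlap (1784 genes, and 2843 when the mouse was fitted as a block, as each animal gave both sums, and 892, 950 and 799 without replicate 2, 3 or 4), and 1 of 7 members, C3ar1. C3ar1 was at 281, 402, 392 and 417 CPM in the Ms4a7-high cells of replicates 1 to 4 and at 217, 187, 162 and 173 CPM in the others. Every mouse had more in its Ms4a7-high cells, and the values did not overlap (log2 fold change 1.02, SE 0.13, adjusted p = 0.000237, edgeR). The 10 CAM markers, from the type highest in C3ar1, summed to 181 to 451 CPM in Ms4a7-high and 62.6 to 118 CPM in the remaining microglia-like cells of those animals, with mean Mrc1 at 108 against 16.3 CPM, Pf4 at 51.0 against 5.12 CPM and Lyve1 at 0 in Ms4a7-high cells. The part of these markers in the C3ar1 difference was not tested. C3 was at 19.3, 25.3, 24.6 and 22.4 CPM against 24.5, 27.0, 26.3 and 41.5 CPM, lower in each mouse, and did not pass (-0.38, SE 0.21, edgeR adjusted p = 0.245). That fit did not pair the 2 sums of a mouse. In 10 alternatives, the mouse as a block among them, C3 was not called either (edgeR or DESeq2 adjusted p 0.0757 to 0.630). C5ar1, C4b and the C1q genes did not pass either, with log2 fold changes from -0.06 to 0.64.

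In CAM-like cells 1.17% of 3346 genes were called between the genotypes, 0.658% higher in Arpc4dCx3cr1 mice, and 6.46% did not overlap. Of 7 members tested, 2 were called, C5ar1 and Cfp, both higher. C5ar1 was at 105, 204, 145 and 173 CPM in Control and 636, 205, 321 and 356 CPM in Arpc4dCx3cr1 replicates 1 to 4. Control replicate 2 and Arpc4dCx3cr1 replicate 2 nearly met, although the genotypes did not overlap (log2 fold change 1.30, SE 0.28, adjusted p = 0.0181, edgeR). The call of C5ar1 was lost without Control replicate 1, 3 or 4 (edgeR adjusted p 0.111, 0.132 and 0.0560) and without Arpc4dCx3cr1 replicate 1, when it was 0.90 (adjusted p = 0.0858). Cfp was at 26.2, 62.2, 48.3 and 33.8 CPM against 93.3, 145, 119 and 94.1 CPM, without overlap (1.34, SE 0.33, adjusted p = 0.0397, edgeR). The call of Cfp was lost in 7 of the 8 fits that left out 1 mouse (adjusted p 0.0531 to 0.148), all but that without Arpc4dCx3cr1 replicate 4, and with DESeq2 (adjusted p = 0.0529). These sums came from 45 to 111 cells in most mice and from 22, 31 and 27 cells in Arpc4dCx3cr1 replicates 2 to 4.

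The other members did not pass in CAM-like cells. C4b was at 168, 222, 156 and 190 CPM against 373, 254, 147 and 491 CPM, with overlap (log2 fold change 0.79, SE 0.27, adjusted p = 0.208, edgeR). C1qa was at 8377 to 9571 CPM against 9955 to 13904 CPM, without overlap, yet at 0.38 (SE 0.19) did not pass (edgeR adjusted p = 0.488). C1qb (0.30), C1qc (0.19) and C3ar1 (-0.04) did not pass either. C3 was too low to be tested, with 7 UMIs (5.84 CPM, 95% Poisson interval 2.35 to 12) in Control and 3 UMIs (6.18 CPM, 1.27 to 18.1) in Arpc4dCx3cr1 CAM-like cells, and the upper end of the latter interval lay below the 30.1 CPM pooled over Arpc4dCx3cr1 microglia-like cells. The monocyte marker list, whose cells hold Cfp, summed to 174 to 238 CPM in Control and 0 to 512 CPM in Arpc4dCx3cr1 CAM-like cells, with 4 of the 8 markers higher in the latter. Chil3, Vcan and Ace were at 0 in every mouse, mean Plac8 was at 0.966 against 77.9 CPM, Ifitm6 at 11.6 against 30.7 CPM, Ly6c2 at 0 against 1.87 CPM and F10 at 0 against 1.66 CPM, and Ccr2 at 185 against 48.2 CPM. The 10 CAM markers summed to 7044 to 8439 CPM and 5050 to 14937 CPM. The 12 microglia markers summed to 6138 to 7709 CPM in Control and 3169 to 5890 CPM in Arpc4dCx3cr1 CAM-like cells, with none higher in the latter. In microglia-like cells that list was at 22876 to 23289 CPM and 9098 to 13492 CPM. The part of these levels and shifts in the results was not tested.

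**Figure D4:**
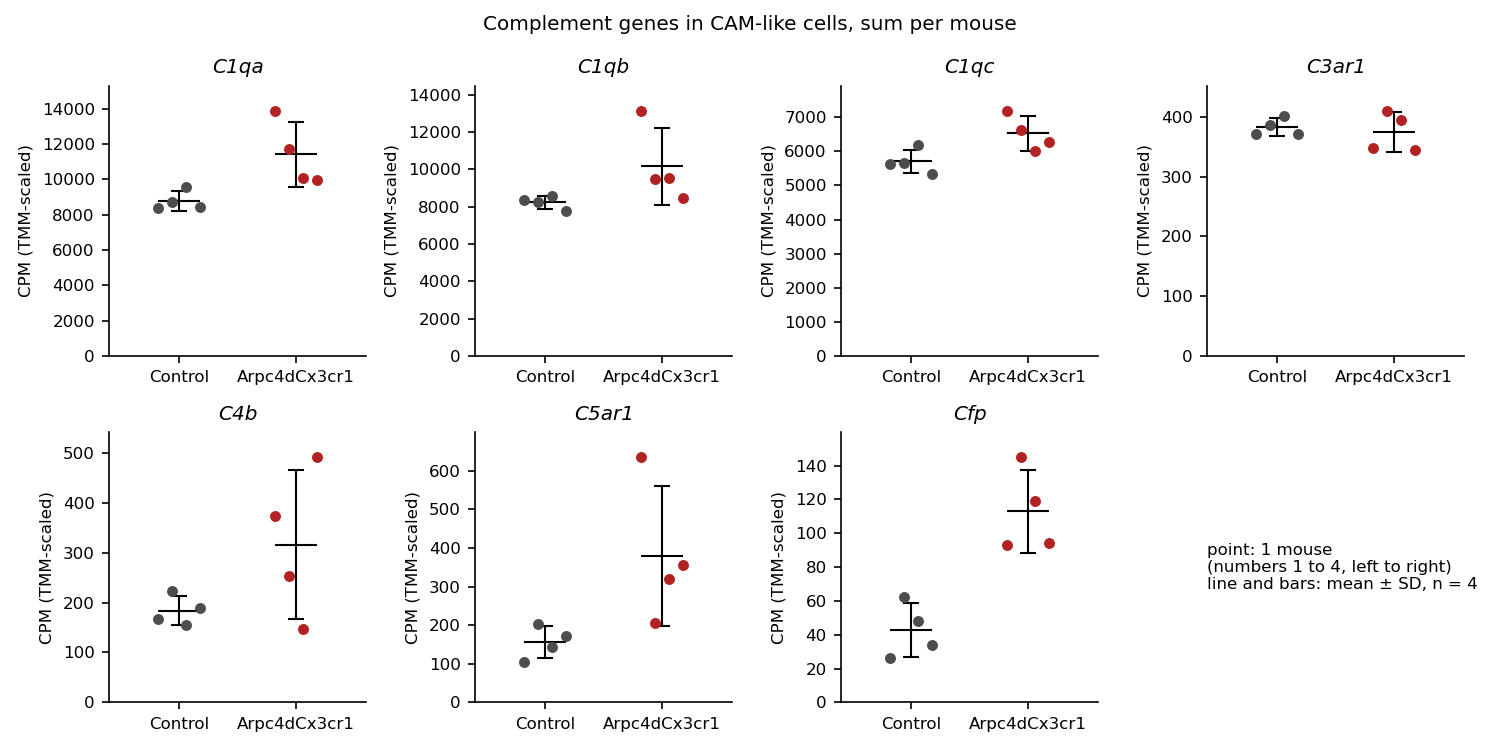
Level of the 7 members tested in CAM-like cells, in CPM scaled by the TMM factor, with 1 point per mouse in the order of its number and the mean ± SD (n = 4) as lines. C5ar1 and Cfp lie higher in Arpc4dCx3cr1 mice, from 205 to 636 CPM and from 93.3 to 145 CPM, and C3ar1 is alike in both genotypes.

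Whether the genotype acted differently on a member in CAM-like and microglia-like cells was tested as an interaction, in which 4.48% of 11165 genes were called and none of the 8 members. C3 had the largest difference, -3.98 on the log2 scale (CAM-like minus microglia-like, SE 1.33, adjusted p = 0.103, edgeR), where the median over all genes was -0.15. It was called with DESeq2, without the filter on low counts, with the mouse as a block and without Arpc4dCx3cr1 replicate 1, and its adjusted p ranged from 0.00250 to 0.258 over the alternatives. In the same edgeR test Cfp differed by 1.43 (SE 0.52, adjusted p = 0.134) and C3ar1 by -0.39 (SE 0.18, adjusted p = 0.252).

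In the other cell types that could be compared no member was called. In T cell-like cells 4.34% of 4192 genes were called and none of the 4 members tested, in monocyte-like cells 7.07% of 3128 genes and none of 4, and in proliferating-like cells 1.39% of 3609 genes and none of 4. The C1q genes of monocyte-like cells varied too widely between mice to show a difference, C1qa from 224 to 2062 CPM in Control and from 157 to 2377 CPM in Arpc4dCx3cr1 mice. C1qa in proliferating-like cells was at 3691 ± 2484 CPM in Control and 7266 ± 746 CPM in Arpc4dCx3cr1 mice (n = 3) and did not pass (log2 fold change 0.98, SE 0.50, adjusted p = 0.392, edgeR). C3 in monocyte-like cells was not tested and was at 4.39 to 21.0 CPM in Control and 8.46 to 61.6 CPM in Arpc4dCx3cr1 mice, with overlap. C4b in Arpc4dCx3cr1 monocyte-like cells reached 92.8 CPM in replicate 1, the mouse with high Xist, and averaged 23.2 ± 46.4 CPM. The other Arpc4dCx3cr1 mice held no C4b UMI in these cells.

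Over the 14 sums of cell type and genotype, the genes whose pattern was most like that of a member were found by Pearson r of log2(CPM + 10), which is a description because the sums share 1 library and differ in depth. C1qa was most like C1qb (r = 0.997) and C1qc (0.994), and C1qb like C1qc (0.991), with Sbf2 and Ntpcr following at 0.972 and 0.973 for C1qa and C1qb. C3 was most like Il1rn, the interleukin 1 receptor antagonist (0.959), Msantd3 (0.956) and Sgms2 (0.923). C3ar1 was most like Mfsd11 (0.973), Slc16a7 (0.963) and Il10rb, a receptor chain for interleukin 10 (0.954). C4b was most like Gm47675 (0.972), Serpinb8 (0.970) and Adamtsl5 (0.968). C5ar1 was most like Tmcc1 (0.905), Atp6v0c (0.890) and Fgd4 (0.831), and Cfp like Ifitm2 (0.892), Gm21188 (0.874) and Cyp4f18 (0.860).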

How the data were processed

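CD45+ cells were isolated from dissociated brains with Percoll and sorted as live cells, tagged per mouse, pooled and sequenced as 1 10x 3′ library. The reads were mapped by the authors with Cell Ranger to the mm10 genome (6.1.2 per the labels' processing notes, 7.1.0 per the file headers) and assigned cells to mice by tag, which removes droplets with several tags. The deposited tables hold raw UMI counts per gene and cell, and no correction for free RNA was applied to them. Doublets within a mouse were not removed.

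Barcodes under 200 genes or over 20% mitochondrial UMIs were dropped. Cells were clustered with Seurat 5.3.0 (R 4.3.3) at resolution 0.8 without the complement genes, and clusters were named from marker lists. A cluster whose median UMI count was low for its mice stayed unnamed. UMIs were summed per mouse and cell type with at least 10 cells, giving 4189469 to 10862200 UMIs per microglia-like sum. Sums were tested with edgeR 4.0.16 (filterByExpr, TMM, robust quasi-likelihood fit, Benjamini-Hochberg adjustment over all genes tested, call at adjusted p under 0.05). Shares of cells were taken after thinning to 2000 UMIs and compared with an exact permutation test over the 70 regroupings of 8 mice. Likeness of patterns was Pearson r of log2(CPM + 10), and promoter windows came from RefSeq.

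Mice were the replicates, and all came from 1 library, so p-values measure the spread between these mice. Within a mouse, CAM-like and Ms4a7-high sums are paired with microglia-like sums by the animal. For these pairs the correlations of the deviations were 0.0280 to 0.0610 (CAM-like) and 0.208 to 0.473 (Ms4a7-high).

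All 8 members were followed in every comparison. From the wider list the 8 called genes with the largest absolute log2 fold change in microglia-like cells and the 3 integrin chains were named, with Arpc4 and the 3 genes most alike per member. Lrp1, Cd46 and Cr1l were named outside this rule after their values were seen. An item of the list is counted but not reported here by name. The members and lists were chosen with earlier results of these data known. Intervals cover counting error only. Alternatives were DESeq2 1.42.0 and its size factors, no filter on low counts, a replicate block, subtraction of free RNA, stricter cell filters, resolution 0.4, all cells of a mouse and leaving out each mouse. Adding the Ms4a7-high cluster to the microglia-like cells was chosen after seeing the data.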

Additional observations from a re-analysis of the deposited data

Results flagged for a closer look

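In 62 groups of 4 mice looked at, 4 held a mouse whose distance to its nearest neighbour took up more of the group's range than Dixon's critical value at the 95% level allows, and chance gives about 1 in 20 such groups. Arpc4dCx3cr1 replicate 1 was that mouse for C1qb in microglia-like cells, at 9542 CPM against 6940 to 7379 CPM in the other Arpc4dCx3cr1 mice, for C4b, at 11.5 CPM against 0.870 to 2.20 CPM, and for C5ar1, at 320 CPM against 104 to 114 CPM. It is also the mouse with high Xist and low Ddx3y. For C2, Control replicate 3 was the mouse, at 2.71 CPM against 3.40 to 3.50 CPM in the other Control mice.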

How the results depend on the processing

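Over 806 values of members and named genes under alternatives, 719 kept their direction and side of the threshold, 42 lost and 11 gained the call, and 34 reversed. Of 80 shares of cells, 6 moved by more than the SD between mice. The call of C3 in microglia-like cells held in all 18 alternatives. Among these, the fits with free RNA subtracted could not make the fold change smaller, so they do not bear on how firm the call is. The fitted log2 fold changes of C3 after that subtraction (7.45 and 10.79) depend on the prior count, because the Control sums fell near 0.

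In microglia-like cells the 3 called members became 1 (C3) when a fold change over 1.5 was also asked, and 1 to 4 with a mouse left out, 4 without Arpc4dCx3cr1 replicate 1. DESeq2 and subtraction of free RNA at the T cell-like share added C5ar1. In CAM-like cells the 2 called members became 1 with DESeq2, 1 without the filter on low counts, 1 with 10% free RNA subtracted, 0 with free RNA subtracted at the T cell-like share, 0 with the replicate block and 0 to 2 with a mouse left out. CAM-like against microglia-like cells gave 4 in place of 7 without the filter, and 4 to 7 with a mouse left out. The difference of effects gave 1 (C3) in place of 0 with DESeq2, without the filter and with the replicate block, and 0 to 1 with a mouse left out. The Ms4a7-high comparison gave 1 to 2 and the other cell types 0 to 2 with a mouse left out, the latter 3 without the filter. The shares gave 0 calls throughout after adjustment over the members, an outcome largely set by the number of mice. With all mice the smallest p of the exact permutation test was 0.0286, which a few members alone cannot carry past the adjustment. With a mouse left out it was 0.0571, so no call was possible.

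Reversed log2 values were as follows. With a mouse left out, the microglia-like genotype difference ranged from -0.00290 to 0.16 for C1qb, from -0.0582 to 0.0241 for C1qc and from -0.49 to 1.22 for C4b. The T cell-like one ranged from -0.0684 to 0.17 for C1qc and from -0.0569 to 0.26 for C3ar1. The monocyte-like one ranged from -0.59 to 0.63 for C1qa, -0.51 to 0.66 for C1qb, -0.47 to 0.67 for C1qc and -0.85 to 0.59 for Cfp. The difference of effects ranged from -0.0407 to 0.0662 for C1qa, -0.69 to 1.08 for C4b and -0.0230 to 0.25 for C5ar1. Over all cells of a mouse C1qc was at 0.000367. Monocyte-like Cfp was at -0.0481 with DESeq2 and -0.0499 with the replicate block. The difference of effects was -0.0593 for C1qa and -0.0616 for C5ar1 with 10% free RNA subtracted, and 0.0834 for C4b with the replicate block. C3 was at 0.32 between cells with an Ms4a7 UMI and cells without. The causes were not tested.

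The number of genes called moved by over 1.5 times in CAM-like cells, from 39 to 104 without the filter, 19 with the replicate block, 25 and 7 with free RNA subtracted at 10% and at the T cell-like share, 22 and 15 without Control replicate 1 or 3 and 59 without Arpc4dCx3cr1 replicate 4. It moved in T cell-like cells from 182 to 114 with DESeq2, 71 with free RNA subtracted at the T cell-like share and 108 without Control replicate 2. In monocyte-like cells it moved from 221 to 106 and 133 without Control replicate 2 or 4 and 112 without Arpc4dCx3cr1 replicate 3. In proliferating-like cells it moved from 50 to 267 with the block, 215 without the filter, 23 and 11 with free RNA subtracted, 84 at resolution 0.4, 12 and 120 without Control replicate 3 or 4, and 139, 32 and 8 without Arpc4dCx3cr1 replicate 2, 3 or 4. The difference of effects moved from 500 to 294 to 327 without a Control mouse, and the Ms4a7-high comparison from 1784 to 2843 with the block, 332 when cells were split by an Ms4a7 UMI, and 892, 950 and 799 without Arpc4dCx3cr1 replicate 2, 3 or 4.

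Mouse numbers did not pair the genotypes. Mice of the same number had correlations of deviations of -0.0674 to -0.00679, and 0 of 4 Arpc4dCx3cr1 mice correlated best with their own number. With the block C3ar1 lost its call in microglia-like cells (adjusted p = 0.0971, edgeR). Depth limits Cfp in microglia-like and C3 in CAM-like cells, which were too low to be tested.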

Other observations

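The C3 UMIs of Control cells were spread unevenly over the clusters. Of the Control cells in the second clustering, the 91 cells of cluster 1, led by Tafa1, held 18 C3 UMIs, while the 2726 cells of cluster 0 held 12 and the 1967 cells of cluster 2 held 7. The 104 Control cells of cluster 8, led by Ccl4, held 1 C3 UMI and the highest C3ar1 level of any cluster, 507 ± 60.9 CPM (SD, n = 4).

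The ratio of C1qa to C1qb UMIs in Ms4a7-high cells of Arpc4dCx3cr1 mice was 1.27 ± 0.0501 (n = 4). C4b in Arpc4dCx3cr1 monocyte-like cells, 53.4 CPM over all mice, came from replicate 1, the mouse with high Xist, at 92.8 CPM, with the other 3 at 0.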
